A study of Mus musculus with 10 samples.

Results

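Hopx is 1 gene of the 22740 protein-coding genes in the deposited count table, taken as the single row that carries this name, and it was followed through all 10 libraries. The libraries come from C57BL/6 mice that had all received 4-NQO (4-nitroquinoline 1-oxide, a DNA-damaging carcinogen that induces squamous tumours of the upper digestive tract). Of these, 5 were labelled Grhl3 knockout with oesophageal tumour as tissue, and 5 were labelled wild type with oesophagus as tissue. The design text of the series speaks of tumours for both genotypes; since the tissue label differs between the groups as genotype does, the effects of these labels cannot be told apart here. The series title calls the mutants conditional knockouts, and their columns carry the word L2Cre; the promoter that drives Cre, the cells it acts in, and the age and sex of the mice are not stated there. Libraries are named by group and by the sample number in the title, and "Grhl3 KO" stands for the libraries so labelled. The question put to Hopx was whether its level differed between the 2 genotypes and which genes had levels that followed it from library to library.

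Hopx encodes the homeodomain-only protein, a small protein built of little more than a homeodomain that lacks the residues needed to bind DNA. It works as a cofactor: it was described in heart as an antagonist of serum response factor (SRF) that recruits histone deacetylases, and it also meets SMAD proteins of the BMP pathway. In stratified epithelia Hopx is found in the differentiating layers, in other epithelia it marks reserve stem cells or alveolar cells, and effector T cells make it too. GRHL3 is a transcription factor of the grainyhead-like family that is needed for epidermal barrier formation; Hopx has been named elsewhere among its targets.

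The gene (ENSMUSG00000059325) lies on the minus strand of chromosome 5 at 77086988 to 77115121 (GRCm38). In the GENCODE annotation, 1 transcript starts at 77115121 and 2 start at 77095277 and 77095253, and all 3 share the last exon. The table sums over these transcripts. The non-coding antisense gene Hopxos overlaps Hopx from 77094532 to 77102303 on the plus strand; the name of the deposited file says that counting used the strand. Apart from Hopxos, 0 annotated genes matched a Hopx transcript over 75 or more bases at 95% identity or more.

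RefSeq (GRCm38.p6) gives 2 promoter windows of 300 bases for Hopx, which are shown because Hopx has been named as a target of the factor altered in these mice. They lie at chr5:77115074-77115373 and chr5:77095218-77095517 on the minus strand. Capitals mark a CArG box, the SRF motif, at positions -83 to -74 from the start:
upstream start: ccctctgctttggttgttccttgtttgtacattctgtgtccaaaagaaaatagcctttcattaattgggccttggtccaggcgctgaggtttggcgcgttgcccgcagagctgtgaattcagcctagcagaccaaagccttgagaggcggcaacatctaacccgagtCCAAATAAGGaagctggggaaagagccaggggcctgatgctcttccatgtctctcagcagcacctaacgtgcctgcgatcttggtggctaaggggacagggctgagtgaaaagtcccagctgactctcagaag
downstream start: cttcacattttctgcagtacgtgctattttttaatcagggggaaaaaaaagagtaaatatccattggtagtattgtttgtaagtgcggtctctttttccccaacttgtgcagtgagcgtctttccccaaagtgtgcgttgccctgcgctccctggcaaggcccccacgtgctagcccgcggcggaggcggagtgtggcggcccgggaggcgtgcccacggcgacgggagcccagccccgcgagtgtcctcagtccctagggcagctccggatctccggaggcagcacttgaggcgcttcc

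Both strands of the windows were searched for 4 motifs: AACCGGTT and its looser form AACNNGTT, which grainyhead-like factors bind, TGANTCA, which AP-1 binds, and the CArG box. The upstream window held the CArG box and no match to the other motifs, and the downstream window held 0 matches. Of all 32851 RefSeq windows of this length, 0.146% held AACCGGTT, 4.20% AACNNGTT (which includes the former), 7.81% TGANTCA and 1.63% a CArG box. Among the 6 genes most like Hopx by correlation, the window of Sdr9c7 held a CArG box, the window of Bpifc and both windows of Tmem54 held TGANTCA, and those of Polr3g, Gpr160 and Cnfn held 0 matches. A match is a stretch of letters and does not show binding.

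Grhl3 itself, the labelled target, did not set the groups apart. It stood at 135, 234, 191, 235 and 317 CPM in Grhl3 KO libraries 1026, 1027, 1035, 1036 and 1043, and at 363, 114, 164, 283 and 109 CPM in wild-type libraries 1028, 1048, 1528, 1555 and 1561. CPM are read counts divided by the library size in M (mega, after adjustment by TMM factors). The log2 fold change of Grhl3 (Grhl3 KO minus wild type) was 0.11 (SE 0.35, 95% limits -0.67 to 0.88, edgeR adjusted p = 0.979). The table holds whole-gene sums, which do not resolve single exons.

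On average, wild-type libraries held 2.62 times as much Hopx as those labelled Grhl3 KO. The 5 Grhl3 KO libraries, in the order above, held 77.9, 125.7, 54.2, 98.9 and 143.3 CPM of Hopx. The 5 wild-type libraries held 299, 127, 319, 372 and 193 CPM. The groups met at 1 point only: wild-type library 1048 lay below Grhl3 KO library 1043 and just above Grhl3 KO library 1027, and the other 4 wild-type libraries lay above every Grhl3 KO library. The range within a group was wide, 2.64-fold in Grhl3 KO and 2.92-fold in wild type. Raw counts of Hopx ran from 1238 to 6898, so counting error was 1.20 to 2.84% per library and small beside these ranges.

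**Figure D1:**
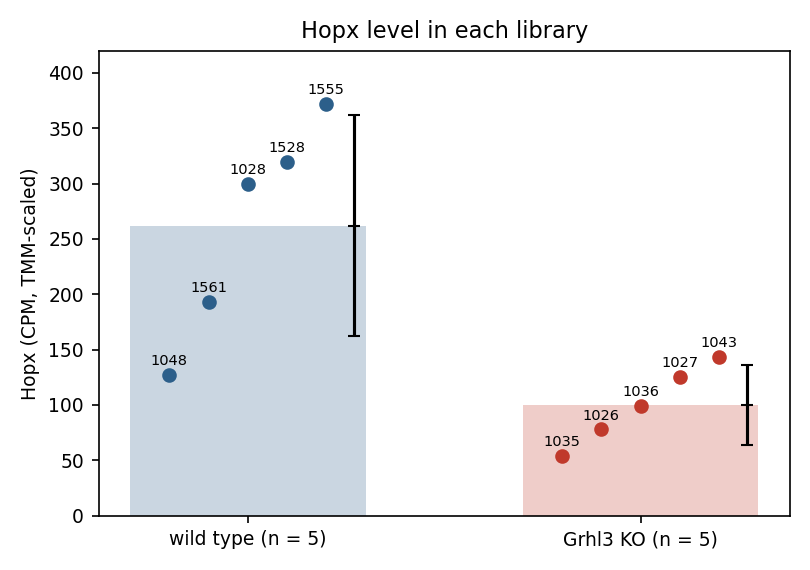
Hopx level (CPM, y axis) in each of 5 wild-type and 5 Grhl3 KO libraries; bars are group means, error bars are 1 SD beside the points, and numbers are sample numbers. Wild-type library 1048, at 127 CPM, lies within the Grhl3 KO range of 54.2 to 143.3 CPM, and the other wild-type libraries lie above it.

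The group means were 99.99 ± 35.8 CPM in Grhl3 KO against 262 ± 99.5 CPM in wild type (SD, n = 5 each). The log2 fold change was -1.39 (SE 0.32, 95% limits -2.10 to -0.68). In edgeR's quasi-likelihood test over all 13731 genes tested, the unadjusted p was 0.00127, rank 66, and the adjusted p was 0.257, which misses the threshold of 0.05. By the same rule 0.0801% of all genes passed, and an unadjusted p under 0.05 in either direction was reached by 7.16%. For Hopx as a single value, an exact two-sided permutation test of log2 CPM over all 252 assignments of 5 and 5 libraries gave p = 0.0159, where the smallest possible is 0.00794. This p is not adjusted over genes. Hopx was chosen with earlier results of these data known, so the permutation test is not independent of that choice. DESeq2, which called 0.873% of its genes, gave Hopx an adjusted p of 0.00376. In bulk tissue fewer Hopx-expressing cells and less Hopx RNA per cell cannot be told apart.

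Library measures are given beside this difference. Total counts ran from 15.3 to 32.9 M in Grhl3 KO and from 17.8 to 23.4 M in wild type. Wild-type libraries 1528, 1555 and 1561 have sample numbers above 1500, a series apart from the other 7 whose meaning is not given. Among the 7 libraries numbered below 1500, with 2 wild-type libraries, the Hopx log2 fold change was -1.09 (edgeR unadjusted p = 0.0277, adjusted p = 0.729); the other series holds no Grhl3 KO library. Wild-type libraries 1528 and 1555, with the highest Hopx levels, held almost no Y-linked counts (0.0527 and 0.0539 CPM summed over Ddx3y, Eif2s3y, Kdm5d and Uty), library 1561 held 72.3 CPM, and the other 7 libraries held 154 to 203 CPM. Y-linked RNA comes from male cells, so by these counts sex was not balanced between the groups. Without libraries 1528 and 1555 the Hopx log2 fold change was -1.05 (edgeR unadjusted p = 0.0135, adjusted p = 0.835). With the Y-linked level as a covariate it was -1.001 (edgeR unadjusted p = 0.0148, adjusted p = 0.853). The part of sample number and of Y-linked content in the difference was not tested beyond these values.

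The other grainyhead-like genes did not pass either. Grhl1 averaged 214 ± 60.9 CPM in Grhl3 KO against 141 ± 51.4 CPM in wild type (log2 fold change 0.60, edgeR adjusted p = 0.692). Grhl2 averaged 85.3 ± 6.50 and 92.9 ± 8.56 CPM (log2 fold change -0.12, edgeR adjusted p = 0.824). Over 10 libraries Hopx and Grhl3 had a Pearson r of 0.29 (permutation p = 0.407, adjusted p = 0.916) and a Spearman rho of 0.25 (permutation p = 0.492), and r was 0.22 without the 2 libraries farthest from the Hopx median. Once each group's mean was subtracted, r with Hopx was 0.73 for Grhl3 and 0.72 for Grhl1, against -0.62 for Grhl2. Within a group, then, the libraries richer in Hopx were also richer in Grhl3, by r of 0.71 in Grhl3 KO and 0.76 in wild type, each over 5 libraries and given without a test.

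The gene whose level was most like that of Hopx was Sdr9c7, an epidermal dehydrogenase that acts on acylceramides of the lipid barrier. It held 22.1, 29.9, 17.2, 21.9 and 54.0 CPM in the Grhl3 KO libraries and 108.9, 41.3, 98.8, 133.9 and 66.2 CPM in the wild-type libraries. Wild-type library 1048 was the lowest of its group and Grhl3 KO library 1043 the highest of its group, as for Hopx. Likeness was measured as Pearson's r of log2 CPM over 10 libraries, for 13730 genes. Sdr9c7 had r = 0.98 (permutation p = 1e-05, the smallest that 100000 resamples give) and rho = 0.98 (permutation p = 3e-05). Without libraries 1555 and 1035, the farthest from the Hopx median, r was 0.97, and within the 7 libraries numbered below 1500 it was 0.96 (exact permutation p = 0.000397).

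Next came Bpifc, of the family of bactericidal permeability-increasing proteins, with r = 0.97 (permutation p = 3e-05), rho = 0.95 (permutation p = 1e-04), r = 0.95 without the 2 farthest libraries and 0.97 within the lower number series (exact permutation p = 0.000992). All 5 of its Grhl3 KO values, 32.7 to 56.6 CPM, lay below its 5 wild-type values, 64.1 to 126.8 CPM. Of all genes, 1.35% had no overlap between the groups, in either direction. Bpifc was chosen by its r with Hopx, so this is no separate test. Tmem54, encoding a membrane protein, had r = 0.96 (permutation p = 3e-05), rho = 0.95 (permutation p = 0.00012), r = 0.96 without the 2 farthest libraries and 0.93 within the lower number series (exact permutation p = 0.00139). Its values ran from 23.8 to 41.0 CPM in Grhl3 KO against 33.1 to 64.8 CPM in wild type, so the groups overlapped.

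Polr3g, a subunit of RNA polymerase III, had r = 0.95 and rho = 0.95. The orphan receptor gene Gpr160 had r = 0.95 and rho = 0.96. Cnfn, encoding cornifelin of the cornified envelope, had r = 0.94 and rho = 0.93. Their permutation p for r were 4e-05, 8e-05 and 0.00015, and those for rho 0.00011, 9e-05 and 0.00028; without the 2 farthest libraries r was 0.97, 0.90 and 0.91. Within the lower number series r was 0.94, 0.98 and 0.93 (exact permutation p = 0.00278, 0.00119 and 0.00397).

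None of these relations passed a Benjamini-Hochberg adjusted p of 0.05 with 100000 resamples: 0 of 13730 genes did by Pearson's r (0.0%) and 0 by Spearman's rho, while 1002 genes (7.30%) had an unadjusted permutation p under 0.05. The adjusted p of the first 4 genes was 0.137 and that of Gpr160 and Cnfn 0.192. The number of resamples sets a floor under p, which among these genes only Sdr9c7 reached. With all 3628800 orderings enumerated for the 63 genes of smallest p, a choice made after the data were seen, 3 genes passed: Sdr9c7 (exact permutation p = 2.76e-06, adjusted p = 0.0378), Bpifc and Tmem54 (adjusted p = 0.0441 for each). Polr3g, Gpr160 and Cnfn did not pass (exact permutation adjusted p = 0.0832, 0.160 and 0.204). These orderings and resamples ran over all 10 libraries without regard to group. A difference between the groups shared with Hopx therefore lowers these p-values too. With 1 library left out, r stayed between 0.97 and 0.98 for Sdr9c7, 0.96 and 0.98 for Bpifc, and 0.96 and 0.98 for Tmem54.

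Opposite to Hopx stood Adamts1, a secreted metalloprotease of the matrix, with r = -0.91 (permutation p = 0.0004, adjusted p = 0.192) and rho = -0.87 (permutation p = 0.00237). Of the Grhl3 KO libraries, 1026 held 135.5 CPM and the other 4 held 85.4 to 94.4 CPM, against 43.3, 90.04, 34.9, 35.8 and 55.6 CPM in the wild-type libraries. Library 1048, the wild-type library lowest in Hopx, was the highest of its group in Adamts1. Dennd5b, encoding a Rab exchange factor, had r = -0.90, the nucleoporin gene Nup153 r = -0.90 and the scaffold gene Mpp1 r = -0.88 (permutation p = 0.00054, 0.0003 and 0.00056, adjusted p = 0.192 for each; rho -0.87, -0.88 and -0.85 with permutation p = 0.00188, 0.00158 and 0.00263). Without the 2 farthest libraries r was -0.96 for Adamts1, -0.85 for Dennd5b, -0.81 for Nup153 and -0.78 for Mpp1. Within the lower number series r was -0.80 for Adamts1 (exact permutation p = 0.0562) and -0.99 for Mpp1 (exact permutation p = 0.000397). Among the Grhl3 KO libraries alone r was -0.32 for Adamts1, against -0.98 among the wild-type ones. In the same order, Dennd5b had -0.79 and -0.66, Nup153 -0.98 and -0.72, and Mpp1 -0.99 and -0.80.

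A difference in mean between the groups adds to a pooled r, so the fold changes of these genes are given here. Sdr9c7 averaged 29.0 ± 14.7 CPM in Grhl3 KO against 89.8 ± 36.4 CPM in wild type (log2 fold change -1.63, SE 0.37, edgeR adjusted p = 0.243). Bpifc had -1.09 (SE 0.23, edgeR adjusted p = 0.187), Tmem54 -0.84 (0.257), Polr3g -0.62 (0.394), Gpr160 -0.55 (0.411) and Cnfn -0.82 (0.613). Adamts1 had 0.94 (0.411), Dennd5b 0.71 (0.171), Nup153 0.14 (0.769) and Mpp1 0.16 (0.775). None passed in edgeR. Once each group's mean was subtracted, r with Hopx was 0.936 for Sdr9c7, 0.92 for Bpifc and 0.91 for Tmem54. By the same measure it was 0.88 for Polr3g, 0.86 for Gpr160 and 0.95 for Cnfn. It was -0.75 for Adamts1, -0.70 for Dennd5b, -0.84 for Nup153 and -0.86 for Mpp1. These values are given without a test.

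**Figure D2:**
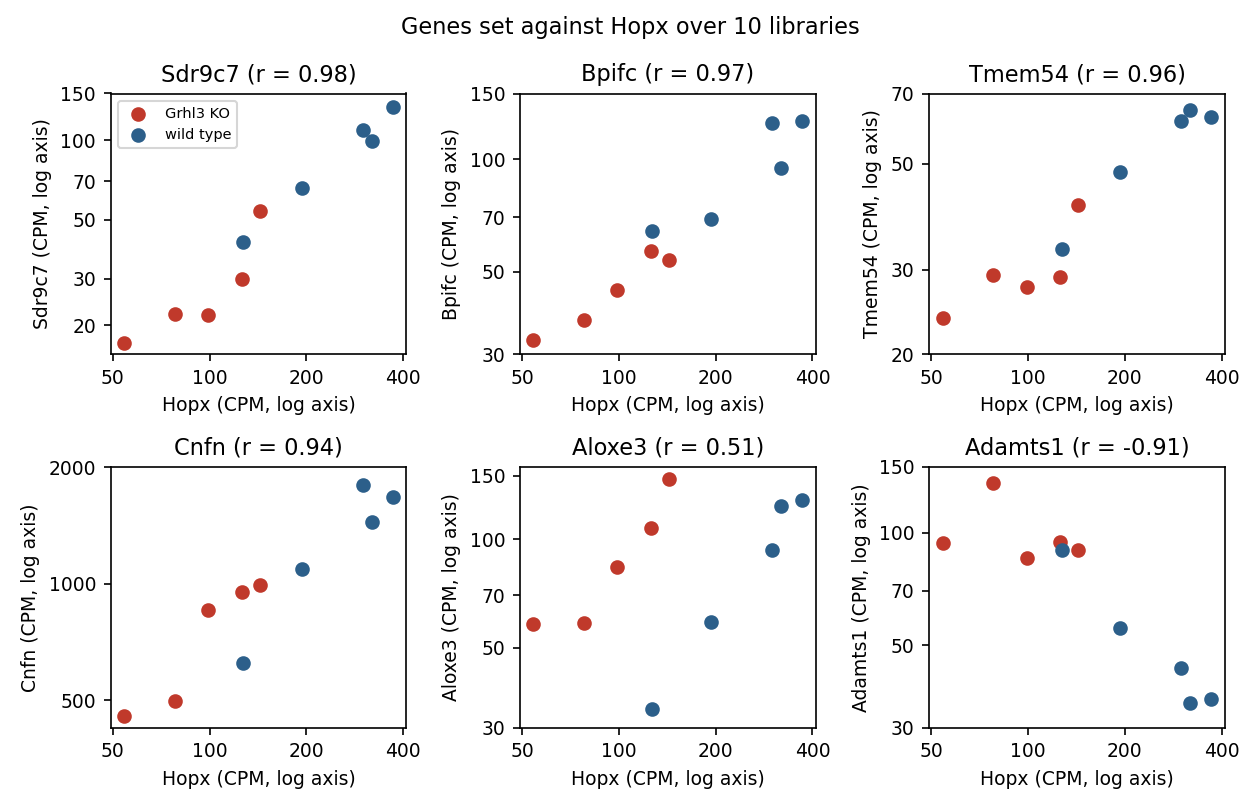
Level of 6 genes (y axis, CPM on a log axis) against Hopx (x axis, CPM on a log axis), 1 point per library, with 5 Grhl3 KO and 5 wild-type libraries coloured by group. Sdr9c7, Bpifc, Tmem54 and Cnfn run along 1 line (r from 0.94 to 0.98), and Aloxe3 along a separate line in each group (r = 0.51). Adamts1 runs downward over all libraries (r = -0.91), less so among the Grhl3 KO libraries alone (r = -0.32).

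With the group means removed, so that only the spread inside each group counted, 4 genes had the highest r with Hopx. Aloxe3, a lipoxygenase of the hepoxilin pathway of the epidermal barrier, had r = 0.96, Cnfn 0.95, the phospholipase gene Pla2g4d 0.94 and Fam57a, encoding a TLC-domain membrane protein, 0.94. Over all genes the 5th and 95th percentiles of this measure were -0.62 and 0.70. The values of Aloxe3 were 58.7, 107.3, 58.3, 83.5 and 147.2 CPM in Grhl3 KO and 93.4, 33.9, 123.9, 128.6 and 59.0 CPM in wild type. These run with Hopx inside each group, but at a given Hopx level the Grhl3 KO libraries held more Aloxe3.

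Aloxe3 did not set the groups apart: its means were 91.0 ± 37.4 and 87.8 ± 41.1 CPM and its log2 fold change 0.05 (SE 0.37, edgeR adjusted p = 0.989). It had r = 0.93 with Hopx among the Grhl3 KO libraries and r = 0.99 among the wild-type ones, but 0.51 over all 10 (permutation p = 0.127; rho = 0.62, permutation p = 0.0596; 0.36 without the 2 farthest libraries). Pla2g4d averaged 45.2 ± 24.9 and 48.7 ± 24.4 CPM, with r = 0.87 in Grhl3 KO, 0.99 in wild type and 0.61 over all (permutation p = 0.0608; rho = 0.65, permutation p = 0.0483; 0.49 without the 2 farthest libraries). Fam57a averaged 614 ± 174 and 761 ± 322 CPM, with r = 0.96, 0.94 and 0.74 (permutation p = 0.0162; rho = 0.76, permutation p = 0.0143; 0.53 without the 2 farthest libraries).

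The genes of squamous differentiation, the keratins, envelope precursors and crosslinking enzymes that stratified cells switch on as they leave the basal layer, followed Hopx inside the groups. Of 50 listed genes 46 were tested, and 39 of them had a positive r with Hopx both in Grhl3 KO and in wild type (84.8%, against 29.5% of all genes). The T and NK cell markers had a like share, 10 of 12 (83.3%). With group means removed 31 of the 46 had r over 0.6, against 8.61% of all genes, and the median r was 0.67 against -0.02. Over all 10 libraries without that step, 17 had r over 0.6 (5.19% of all genes) and the median was 0.40. Genes are not independent replicates, and all these values rest on the same 10 libraries.

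Among them Sprr1b, a cornified envelope precursor from a family of similar genes among which reads could be split, had r = 0.93 over 10 libraries (permutation p = 0.00026, adjusted p = 0.192; rho = 0.96, permutation p = 7e-05; 0.93 without the 2 farthest). It held 230, 588, 351, 431 and 656 CPM in Grhl3 KO and 1319, 437, 932, 1338 and 759 CPM in wild type. Its relative Sprr3 had r = 0.91 (permutation p = 0.00047, adjusted p = 0.192; rho = 0.84, permutation p = 0.00334; 0.83 without the 2 farthest). As with Hopx, wild-type library 1048 lay inside the range of the Grhl3 KO libraries for Sprr1b; Sprr3 stood at 660 CPM in library 1561 and at 920 CPM in library 1048, both within its Grhl3 KO range of 365 to 1010 CPM.

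Between the groups, 18 members of the differentiation list were fitted higher in Grhl3 KO and 28 lower (6829 and 6902 of all 13731 genes). By edgeR adjusted p, 1 of 46 members rose (0.0291% of all genes) and 0 fell (0.0510% of all genes); at an unadjusted p under 0.05, 5 were higher and 12 lower, against 3.44% and 3.72% of all genes. The median log2 fold change was -0.12, against 0.00 over all genes. The member that rose was Krt1, a keratin of cornifying epidermis, from 24.2 ± 11.2 to 200.3 ± 97.7 CPM (log2 fold change 3.05, SE 0.43, edgeR adjusted p = 0.0358); 17 of 27 other settings ended this call, among them leaving out any library other than Grhl3 KO 1026. Hrnr, encoding hornerin, had -4.19 (edgeR adjusted p = 0.206) and Sbsn, encoding suprabasin, -1.06 (0.426). Hrnr was highest in wild-type library 1528, where it was at 145 CPM against a range of 6.74 to 25.5 CPM elsewhere in that group, and without that library its log2 fold change was -2.76. Sprr1b had -1.09 (0.478) and Sprr3 -1.13 (0.504). Besides Krt1, the members higher at an unadjusted p under 0.05 were Krt10, Sprr2f, Crnn and Elf3. Their log2 fold changes were 2.49, 1.36, 0.88 and 0.75 (edgeR adjusted p = 0.524, 0.451, 0.607 and 0.556). Over 10 libraries their r with Hopx was -0.47, -0.16, -0.21 and -0.39. With group means removed it was 0.46, 0.80, 0.73 and 0.28.

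Hopx was also read relative to this list. The mean log2 CPM of the 46 genes ran from 7.996 to 8.79 in Grhl3 KO and from 7.77 to 9.02 in wild type, so the groups overlapped. Hopx minus that mean ran from -2.29 to -1.61 in Grhl3 KO and from -0.93 to -0.18 in wild type, without overlap (means -1.81 ± 0.28 and -0.52 ± 0.32 on the log2 scale, SD, n = 5 each). Of all genes, 0.881% had no overlap between the groups after the same subtraction, and 0.313% were lower in every Grhl3 KO library as Hopx was. The list mean followed Hopx inside each group, so subtracting it narrows the Hopx spread. Genes that do not follow the list are not narrowed in this way. These shares are therefore no like background, and the lack of overlap is no separate test. Only the comparison between libraries has meaning here, since the absolute offset depends on gene lengths. On the same scale, Hopx alone had an SD of 0.56 in the Grhl3 KO libraries and 0.63 in the wild-type ones. Within groups, Hopx and the list mean had r = 0.92 in Grhl3 KO and r = 0.86 in wild type.

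**Figure D3:**
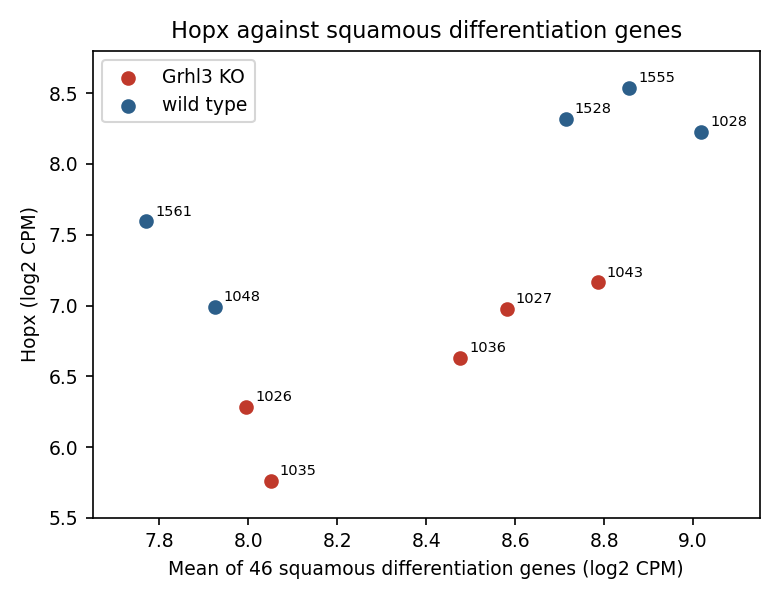
Hopx (y axis, log2 CPM) against the mean of the squamous differentiation genes (x axis, log2 CPM), 1 point per library with its sample number, coloured by group. Wild-type library 1528 is the only one of its group whose list level lies within the Grhl3 KO range; Hopx minus the list mean runs from -0.93 to -0.18 in wild type and from -2.29 to -1.61 in Grhl3 KO.

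When the list mean entered edgeR's fit as a covariate, an alternative added after the data were seen, the Hopx log2 fold change was -1.30 (SE 0.18, adjusted p = 0.0208), in a fit that called 0.371% of all genes. The size was near that without the covariate and the SE was smaller. The call was lost when any 1 of Grhl3 KO libraries 1027, 1036 and 1043 or wild-type library 1555 was left out (edgeR adjusted p from 0.0542 to 0.0716). It also ended with the number series added to the covariate (log2 fold change -0.93, edgeR adjusted p = 0.151) and without wild-type libraries 1528 and 1555 (-1.19, edgeR adjusted p = 0.161).

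For basal and progenitor genes the pooled and the within-group values differed. Of 20 genes tested, 13 had a positive r with Hopx over all 10 libraries (47.1% of all genes did) and the median r was 0.04. With group means removed 1 had a positive r (48.5% of all genes) and the median was -0.25, and 0 had a positive r in both groups (29.5% of all genes). Between the groups 17 of the 20 were fitted lower in Grhl3 KO, as Hopx was (6902 of all 13731 genes were), with a median log2 fold change of -0.27. By edgeR adjusted p 0 rose and 0 fell (0.0801% of all genes passed in either direction), and 2 were lower at an unadjusted p under 0.05 (3.72% of all genes). Ngfr, the neurotrophin receptor of oesophageal basal cells, averaged 13.0 ± 3.44 CPM in Grhl3 KO against 20.4 ± 3.77 CPM in wild type (log2 fold change -0.64, edgeR adjusted p = 0.455). Pdpn, encoding podoplanin, averaged 12.7 ± 6.96 and 34.2 ± 19.4 CPM (-1.44, edgeR adjusted p = 0.548).

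**Figure D4:**
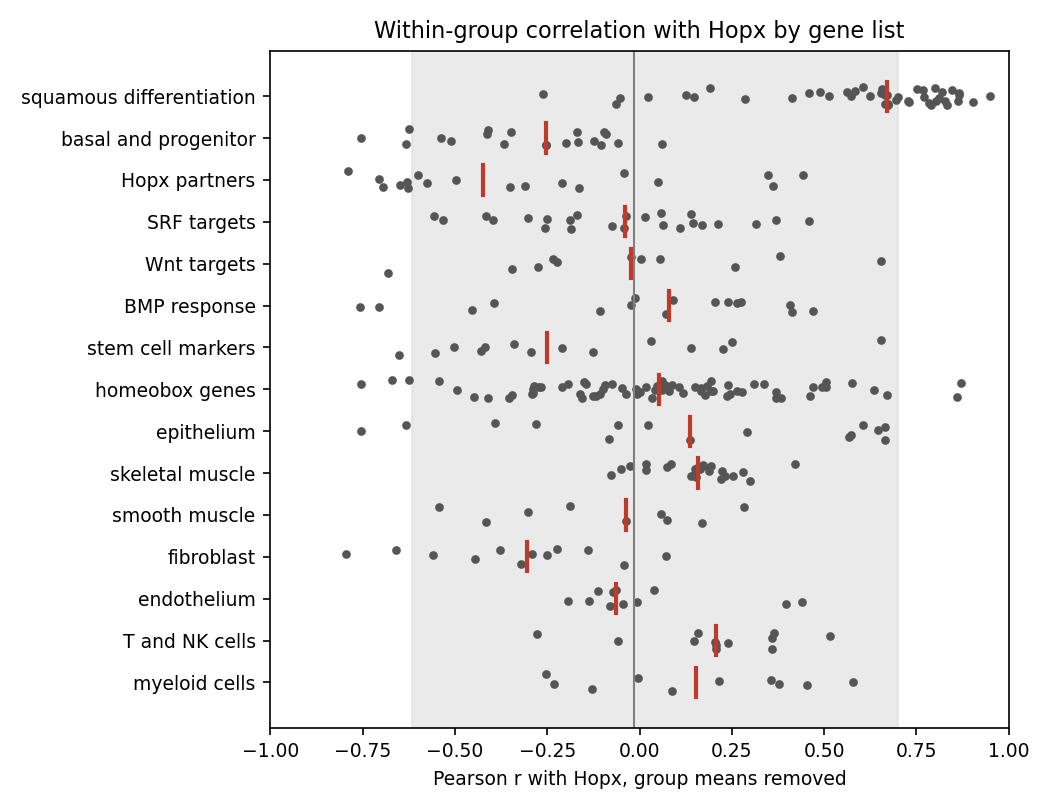
Pearson r of each listed gene with Hopx over 10 libraries after group means were removed (x axis), by gene list (rows); points are genes, red lines list medians, the grey line the median of all genes and the grey band their 5th to 95th percentile, -0.62 to 0.70. The squamous differentiation genes lie to the right (median 0.67). The basal genes (median -0.25) and the genes of the Hopx partner list (median -0.42) lie to the left of 0.

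A list of HOPX partners and of genes that work in complexes with them held 20 genes, of which 18 were tested. By edgeR adjusted p 0 rose and 0 fell (0.0801% of all genes passed in either direction), and the median log2 fold change was -0.04. The list holds histone deacetylases, NuRD and SIN3 subunits, SRF with its coactivators, and SMAD and GATA factors. Not every member is itself a known partner of HOPX. With group means removed the median r of the listed genes with Hopx was -0.42, and 4 of 18 were positive (48.5% of all genes were). Hdac1 averaged 16.8 ± 5.52 CPM in Grhl3 KO against 23.1 ± 1.98 CPM in wild type (log2 fold change -0.46, edgeR adjusted p = 0.643), and its r with Hopx was 0.74 (permutation p = 0.0190, adjusted p = 0.539; rho = 0.72, permutation p = 0.0228; 0.64 without the 2 farthest libraries). Of the Grhl3 KO libraries, 1043 held 26.6 CPM of Hdac1 and the other 4 13.8 to 15.05 CPM. Srf averaged 108 ± 19.2 and 87.7 ± 10.9 CPM (0.30, edgeR adjusted p = 0.697).

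The 24 SRF target genes, many of which carry CArG boxes, were spread around 0: the median r was -0.05 over 10 libraries and -0.04 with group means removed. By edgeR adjusted p 0 rose and 0 fell (0.0801% of all genes passed in either direction), and 3 of 24 were higher at an unadjusted p under 0.05 (3.44% of all genes). The cardiac actin gene Actc1 averaged 30.8 ± 36.1 CPM in Grhl3 KO against 9.99 ± 2.48 CPM in wild type (log2 fold change 1.62, edgeR adjusted p = 0.623). The cytoplasmic actin gene Actg1 averaged 581 ± 97.4 and 478 ± 43.5 CPM (0.28, edgeR adjusted p = 0.694). Of the Grhl3 KO libraries, 1043 held 93.7 CPM of Actc1 and the other 4 held 8.98 to 29.3 CPM. Without library 1043 the log2 fold change was 0.58. Library 1043 also had the highest summed level of skeletal muscle markers (7263 CPM). Library 1026 followed in both, with 29.3 CPM of Actc1 and 4633 CPM of markers. Wild-type library 1555 had 3831 CPM of markers but 5.82 CPM of Actc1. The part of muscle content in the Actc1 difference was not tested.

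Wnt targets and BMP response genes also had 0 members past the threshold by edgeR adjusted p in either direction (0.0801% of all genes passed). At an unadjusted p under 0.05, 2 members of each list were lower and 0 higher, against 3.72% and 3.44% of all genes. Of 11 Wnt targets 7 had a lower fitted level in Grhl3 KO, as did 6902 of all 13731 genes. The Wnt targets had a median log2 fold change of -0.39 and a median r with Hopx of 0.25. Ccnd1, encoding cyclin D1, averaged 217 ± 33.4 and 347 ± 133 CPM (-0.68, edgeR adjusted p = 0.524), and the feedback gene Axin2 7.10 ± 1.19 and 9.33 ± 1.36 CPM (-0.39, edgeR adjusted p = 0.668). Of 16 BMP response genes 12 had a lower fitted level (median -0.39, median r 0.31). The inhibitory SMAD genes Smad7 and Smad6 had -0.33 and -0.40 (edgeR adjusted p = 0.692 and 0.701).

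Stem cell genes that are named with Hopx in gut, hair follicle and lung were read as a further list. Of 18 genes 14 were tested, 0 passed by edgeR adjusted p in either direction (0.0801% of all genes did), and the median r was -0.16. Ascl2, a Wnt-driven factor of intestinal stem cells, had the highest r, 0.79 (permutation p = 0.00661, adjusted p = 0.414; rho = 0.73, permutation p = 0.0200; 0.85 without the 2 farthest libraries), at 2.89 ± 1.38 CPM in Grhl3 KO against 4.55 ± 1.28 CPM in wild type. Sox9 averaged 16.7 ± 5.85 and 26.4 ± 6.74 CPM (log2 fold change -0.66, edgeR adjusted p = 0.646). Wild-type library 1528 held 29.7 CPM of Lgr6, and the 9 remaining libraries held 0.141 to 2.86 CPM.

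Levels of different genes can be compared only per length of transcript. In CPM per kb of annotated exons, Hopx averaged 66.0 in Grhl3 KO and 173 in wild type, and over all libraries it ranked 374 of 13662 genes with an annotated length. A list of other homeobox genes had 72 members tested, with a median of 1.72 CPM per kb. It also holds Pax9, a paired-box gene that lacks a homeodomain. Only Pitx1 of the list lay above Hopx in wild type (187 ± 16.7, SD, n = 5). In Grhl3 KO, Pitx1 (230 ± 18.4) and Barx2 (79.3 ± 11.9) lay above Hopx. Barx2 stood at 77.6 ± 38.7 CPM per kb in wild type. Pax9, the next on the list, stood at 26.8 ± 6.30 in Grhl3 KO and 26.7 ± 10.8 in wild type. The Pitx1 level lay within 1 SD of that of Hopx in wild type (SD 65.6 for Hopx), so their order there is not settled.

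Pitx1, a hindlimb and oral epithelial factor, was fitted higher in Grhl3 KO, where Hopx was lower. It averaged 611 ± 49.0 CPM in Grhl3 KO against 497 ± 44.3 CPM in wild type, with no overlap between the groups (as for 1.35% of all genes), and its log2 fold change was 0.30 (SE 0.10, edgeR adjusted p = 0.484). Its r with Hopx was -0.31 over 10 libraries (permutation p = 0.368; rho = -0.54, permutation p = 0.114; -0.34 without the 2 farthest libraries) and 0.87 with group means removed. Of the 72 tested genes of the homeobox list 0 passed by edgeR adjusted p in either direction (0.0801% of all genes did). The median log2 fold change of the list was -0.08.

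The neighbours of Hopx on the chromosome were read next. Of 15 tested genes within 1 Mb, 0 had an unadjusted p under 0.05 (7.16% of all genes) and 0 an adjusted p under 0.05, and their median log2 fold change was -0.03. The nearest on the side of lower coordinates is Srp72, a subunit of the signal recognition particle, 87.1 kb away, with 189 ± 12.7 CPM in Grhl3 KO against 184 ± 8.27 CPM in wild type (log2 fold change 0.04, edgeR adjusted p = 0.957). The nearest on the other side is Spink2, a protease inhibitor gene 89.99 kb away, at 1.64 ± 0.485 and 1.88 ± 0.860 CPM.

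Markers of the cell types the tissue could hold were read beside Hopx. All 15 epithelial markers were tested, among them Krt5, Krt14, Krt4 and Krt13. Their summed level was 51785 to 68505 CPM in Grhl3 KO against 45079 to 112096 CPM in wild type. A lower fitted level in Grhl3 KO was seen for 13 of 15, and for 6902 of all 13731 genes. The epithelial markers had a median log2 fold change of -0.18 and a median r with Hopx of 0.16. With their mean as a covariate the Hopx log2 fold change was -1.31 (edgeR adjusted p = 0.415). T and NK cell markers, 12 of 18 tested, summed to 19.7 to 38.8 CPM in Grhl3 KO against 8.65 to 67.3 CPM in wild type, with a median r of 0.03 over all libraries and 0.21 with group means removed; with their mean as a covariate Hopx was at -1.43. All 24 tested skeletal muscle markers were fitted higher in Grhl3 KO, as were 6829 of all 13731 genes. The muscle markers had sums of 979 to 7263 CPM against 1696 to 3831 CPM, a median log2 fold change of 0.58 and a median r of 0.00. With their mean as a covariate Hopx was at -1.41.

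All cell type lists had 0 members past the threshold by edgeR adjusted p in either direction (0.0801% of all genes passed). The 12 fibroblast markers summed to 322 to 922 CPM in Grhl3 KO against 420 to 668 CPM in wild type (median r -0.30), 11 endothelial markers to 132 to 203 and 99.7 to 234 CPM (-0.15), 9 smooth muscle markers to 370 to 1092 and 380 to 791 CPM (-0.03), and 10 myeloid markers to 7763 to 11353 and 3263 to 23514 CPM (0.05). Few markers of nerve and glia (4 of 9), adipocytes (1 of 6) and gland or gut (1 of 11) reached the count filter, and no B or plasma cell marker did (0 of 8). The part of these cell types in the Hopx difference was not tested beyond the covariates given.

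**Figure D5:**
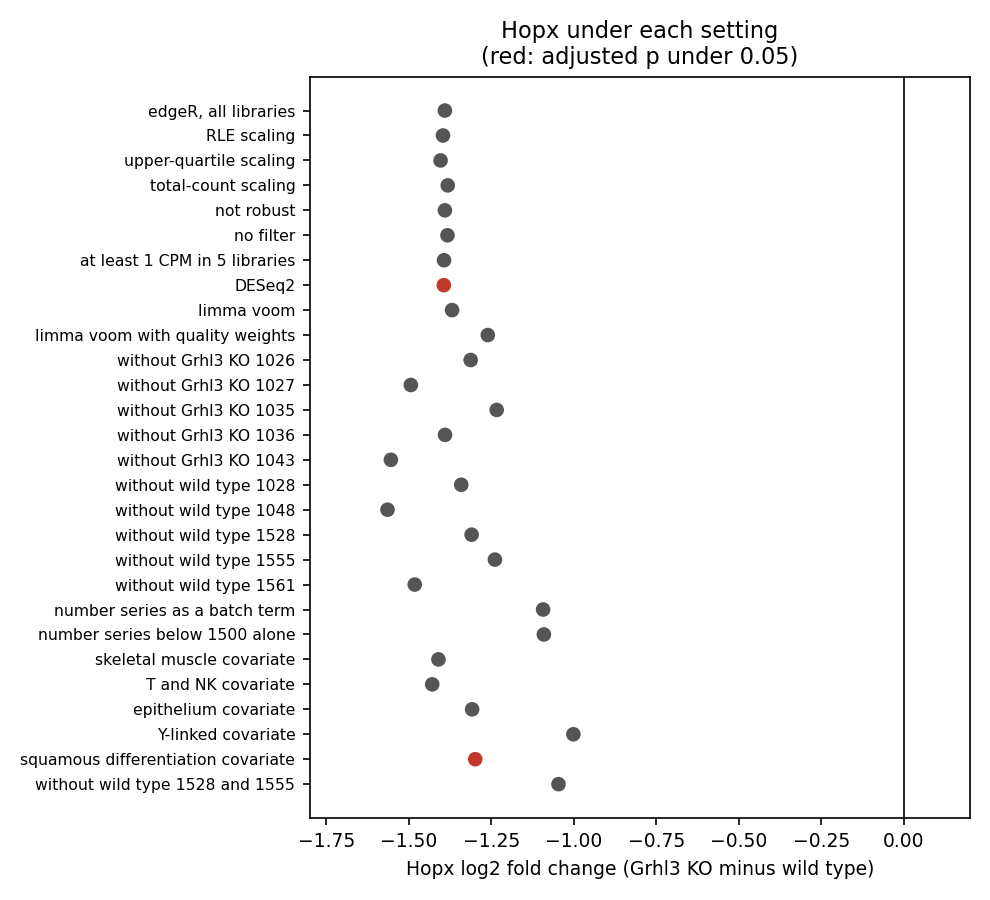
Hopx log2 fold change, Grhl3 KO minus wild type (x axis), in edgeR with all libraries and under 27 other settings (rows); red points have an adjusted p under 0.05. All values lie between -1.56 and -1.001, and DESeq2 and the squamous differentiation covariate are the settings past the threshold.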

How the data were processed

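The table deposited by the authors holds whole-number read counts per gene, without normalization, for 22740 protein-coding genes in 10 libraries; column names were joined to the samples by sample number. Counting used featureCounts and GRCm38, per the submitters' processing notes; the sources used here name no aligner, tool version or annotation release. The table has 0 columns of other samples, and every entry names a gene. Per the labels' protocols, libraries came from a strand-preserving poly(A) kit.

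Genes were kept with filterByExpr of edgeR 4.0.16 (minimum count 10, minimum total 15), leaving 13731, scaled by TMM and tested with edgeR's robust quasi-likelihood F-test in R 4.3.3, with Benjamini-Hochberg adjustment over all genes tested. Log2 CPM carry a prior count of 2. Correlations with Hopx used 100000 resamples of the Hopx values for 10 libraries and exact enumeration for fewer, without regard to group. Both procedures were run on simulated data. Those for the correlations held no difference between groups, so they do not check that setting. Nothing in the labels says how the mice or tumours relate, so p-values measure the spread between these libraries. Gene positions and exon lengths come from GENCODE M21 (GRCm38), which holds 21842 of the 22740 identifiers; similarity was searched with blastn 2.17.0.

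Hopx, the gene lists and the tests were chosen with earlier results of these data known. Genes are named by a rule. It takes the 6 highest and 4 lowest r with Hopx and the 4 highest r with group means removed. Genes chosen this way have a mean of at least 5 CPM and are no predicted model. The rule also takes the grainyhead-like genes, the nearest neighbours, and up to 3 list members of smallest p or highest r. Last come the 6 genes of the homeobox list most abundant per length. Not all of the genes so chosen are printed. Krt10, Sprr2f, Crnn and Elf3 are named beyond this rule and were not part of the check for outlying libraries. The alternatives were other scalings and filters, DESeq2 1.42.0, limma 3.58.1 voom, leaving out libraries, and covariates. The squamous differentiation covariate, the enumeration of all orderings and the fits without wild-type libraries 1528 and 1555 were added after seeing the data. The subtraction of the squamous list mean from Hopx was not planned either.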

Additional observations from a re-analysis of the deposited data

Results flagged for a closer look

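In 8 cases among 80 groups of 5 libraries (40 named genes), 1 library lay far from the other 4, its gap to the nearest exceeding 0.71 of the group's range; chance gives about 1 group in 20. Hopx was not among them. In Grhl3 KO library 1043, Hdac1 stood at 26.6 CPM against 13.8 to 15.05 CPM and Actc1 at 93.7 CPM against 8.98 to 29.3 CPM in the other 4. In Grhl3 KO library 1026, Adamts1 stood at 135.5 CPM against 85.4 to 94.4 CPM and Lgr6 at 1.32 CPM against 0.276 to 0.576 CPM. In Grhl3 KO library 1035, the lowest in Hopx, Srp72 stood at 211 CPM against 179 to 188 CPM. In wild-type library 1528, Hrnr stood at 145 CPM against 6.74 to 25.5 CPM and Lgr6 at 29.7 CPM against 0.141 to 2.86 CPM. In wild-type library 1048, the lowest of its group in Hopx, Sbsn stood at 311 CPM against 770 to 912 CPM.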

How the results depend on the processing

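The Hopx log2 fold change was negative in all 27 alternatives, from -1.56 to -1.001, with an unadjusted p of at most 0.0277, and it passed an adjusted p of 0.05 in 2: DESeq2 (-1.39, adjusted p = 0.00376) and the squamous differentiation covariate (-1.30, edgeR adjusted p = 0.0208). With 1 library left out it ran from -1.56 to -1.23 (edgeR adjusted p from 0.129 to 0.575). The exact permutation test of Hopx stayed under 0.05 in all 13 of its alternatives, which share these libraries and the same choice of Hopx. The fit with the squamous covariate ran from -1.40 to -1.11 with 1 library left out, -0.93 with the number series and -1.19 without wild-type libraries 1528 and 1555, neither with an adjusted p under 0.05 (0.151 and 0.161 in edgeR). The count of genes called, 11 in all libraries, was 130 in DESeq2, 51 with the squamous covariate, 7 with no filter, 3 with the T and NK or the epithelial covariate, and 1 with limma voom (with or without quality weights), the number series as a term or the libraries numbered below 1500 alone, the Y-linked covariate, or without wild-type libraries 1528 and 1555; with 1 library left out it ran from 1 to 16. The count of genes correlated with Hopx was 0 in 15 alternatives and 3 with all orderings enumerated. Near 0, Grhl3 turned negative with the number series as a term (-0.10) or those numbered below 1500 alone (-0.10), and with 1 library left out it ran from -0.0561 to 0.406, Aloxe3 from -0.188 to 0.223 (up to 0.619 with the Y-linked covariate) and Srp72 from -0.00214 to 0.0560. The cause of these shifts was not tested. No paired analysis was possible because the groups share no replicate numbers.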
